A study of Mus musculus with 2 samples.

Results

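The 40 genes described here encode the machinery that copies nuclear DNA and the enzymes that make its building blocks. They were chosen by name as 4 role groups: 10 licensing genes, 6 helicase activation genes, 20 replication fork genes and 4 nucleotide supply genes. All 40 were found among the 21877 named genes of the authors' annotated array table, each with 1 probe set. RNA came from mouse CD8 T cells kept under Tc1 cytokines, which drive these cells toward interferon gamma production and killing. Cholesterol was added to 1 culture, the other received no treatment, and each was measured on 1 whole-transcript array. The sources used here name no mouse strain, age or tissue of origin, and no cholesterol dose, length of treatment or vehicle.

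DNA replication starts when the origin recognition complex, CDC6 and CDT1 load the ring-shaped MCM2-7 helicase onto origins in G1, a step called licensing. In S phase, CDC45 and the GINS complex join the ring and turn it into an active helicase, and polymerases, the sliding clamp and single-strand binding proteins then gather at the fork. Ribonucleotide reductase, thymidylate synthase and thymidine kinase supply deoxynucleotides. Activated CD8 T cells divide rapidly, and many of these genes are targets of E2F transcription factors, which act at entry into S phase.

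The letters of an E2F site were common in these genes' promoters and stood in genes at both ends of the range of differences given below. RefSeq promoter windows on build GRCm38.p6, from 250 bases before to 50 bases after a start site, were matched by symbol for 33 of the 40 genes. Each was searched on both strands for TTTCCCGC, TTTCGCGC, TTTGCCGC and TTTGGCGC, and matches could overlap. At least 1 match was found for 14 of the 33 genes (42.4%), against 2.60% of 27025 genes with a window. By role, the matches fell in 7 of 9 licensing genes, 1 of 3 helicase activation genes, 6 of 17 fork genes and 0 of 4 nucleotide supply genes. The CCAAT box was found for 21 of the 33 genes (63.6%), against 41.1% of all genes. Prim2, Gins1, Gins2, Gins4, Rfc2, Mcm4 and Pole had no entry. A match describes letters only, and binding was not measured.

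The following 4 windows are printed. Orc1, among the members at least 20% lower, and Pold1, among those at least 25% higher, each have a match. Mcm5 and Mcm6 carry overlapping matches. Rfc4 and Tyms, also at least 25% higher, had windows without a match, and Gins2, also at least 20% lower, had no entry. Matches are in capitals, and all are read 5′ to 3′ on the gene's strand.
Orc1, chr4:108579204-108579503, plus strand: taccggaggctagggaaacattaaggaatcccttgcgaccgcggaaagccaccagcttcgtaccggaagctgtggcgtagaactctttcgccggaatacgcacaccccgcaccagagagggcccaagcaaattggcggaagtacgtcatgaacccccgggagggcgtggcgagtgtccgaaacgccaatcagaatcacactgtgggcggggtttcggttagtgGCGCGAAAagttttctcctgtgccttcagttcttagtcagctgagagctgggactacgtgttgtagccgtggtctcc
Pold1, chr7:44548766-44549065, minus strand: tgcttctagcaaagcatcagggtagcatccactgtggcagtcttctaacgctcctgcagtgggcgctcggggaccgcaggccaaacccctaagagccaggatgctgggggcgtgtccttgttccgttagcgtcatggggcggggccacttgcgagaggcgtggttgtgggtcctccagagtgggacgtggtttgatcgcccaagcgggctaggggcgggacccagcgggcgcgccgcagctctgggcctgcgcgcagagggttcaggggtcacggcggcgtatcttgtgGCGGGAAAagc
Mcm5, chr8:75109259-75109558, plus strand: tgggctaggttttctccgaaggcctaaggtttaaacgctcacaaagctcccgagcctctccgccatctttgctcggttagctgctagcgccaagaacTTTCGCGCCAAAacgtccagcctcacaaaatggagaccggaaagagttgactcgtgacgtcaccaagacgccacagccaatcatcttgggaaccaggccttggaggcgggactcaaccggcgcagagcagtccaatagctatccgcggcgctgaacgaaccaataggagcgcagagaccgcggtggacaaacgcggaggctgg
Mcm6, chr1:128359656-128359955, minus strand: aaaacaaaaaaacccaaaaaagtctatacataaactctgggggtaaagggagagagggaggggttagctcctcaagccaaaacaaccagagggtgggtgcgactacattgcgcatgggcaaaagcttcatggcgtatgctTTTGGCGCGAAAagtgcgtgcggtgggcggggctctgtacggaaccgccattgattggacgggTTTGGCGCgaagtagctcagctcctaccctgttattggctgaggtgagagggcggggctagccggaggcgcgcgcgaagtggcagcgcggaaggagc

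The single match of Orc1 began 27 bases before the start site and that of Pold1 at base 40 after it. Members with a match had a median log2 difference, cholesterol minus untreated, of 0.14 and a range from -0.47 to 0.47, and 10 of 14 were higher with cholesterol. The 19 members without a match had a median of 0.083 and a range from -0.15 to 0.34, and 13 were higher.

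With 1 array in each group there is no replicate error and no p-value. Every difference below describes this pair of arrays, which limits the precision. An effect of cholesterol cannot be told apart from any other difference between the cultures or between the arrays. Signals are the authors' linear intensities, and the level of one gene's probe set is not comparable with that of another gene. A brightness filter, reached when a gene's brighter array is at the median gene-level signal of 47.4, was passed by all 40 members and by 11327 genes in all. The 95th percentile of the 5222 negative control probe sets was 121.8 on the cholesterol array and 130.3 on the untreated array, and 38 members lay above it on both. Pold1 and Rfc3 lay within the control range on the untreated array only. In bulk RNA, fewer dividing cells and less RNA per dividing cell cannot be told apart.

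As a group the 40 genes differed little between the arrays. The median log2 difference was 0.0955, against 0.049 over the 11327 genes past the filter and 0.064 over the 7316 of them in the members' range of mean signal, 126 to 3890. Higher signal with cholesterol was found for 27 of the 40 (67.5%), beside a background of 58.6% of all genes past the filter and 62.4% of those in the same signal range. Of the 40, 24 lay above the median difference of the genes in their signal range. At least 25% higher with cholesterol were 3 members, Pold1, Rfc4 and Tyms, where 14.3% of genes past the filter and 12.9% of those in the signal range were called. Only 1 member, Pold1, stayed at least 25% higher by its measured signals after quantile normalization and after loess. The same held after centring on genes past the filter, ribosomal protein genes or positive controls. The untreated signal of Pold1 lay within the negative control range, so a fold of that size is uncertain under those scalings. At least 20% lower, the same size of fold in the other direction, were 2 members, Orc1 and Gins2, where 8.95% and 4.98% were called. No member reached 1.5-fold in either direction, which 3.22% of genes past the filter did upward and 2.72% downward, or 2.23% and 1.16% of those in the signal range. These shares were near or below the background. Members had an interquartile range of 0.24, against 0.28 in the same signal range and 0.32 over all genes past the filter. Brightness was not matched within that range. Spread narrowed with signal, and 19 of the 40 members lay in the brightest of 5 bands of mean signal. Of the members, 16 differed by less than 0.1.

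**Figure D1:**
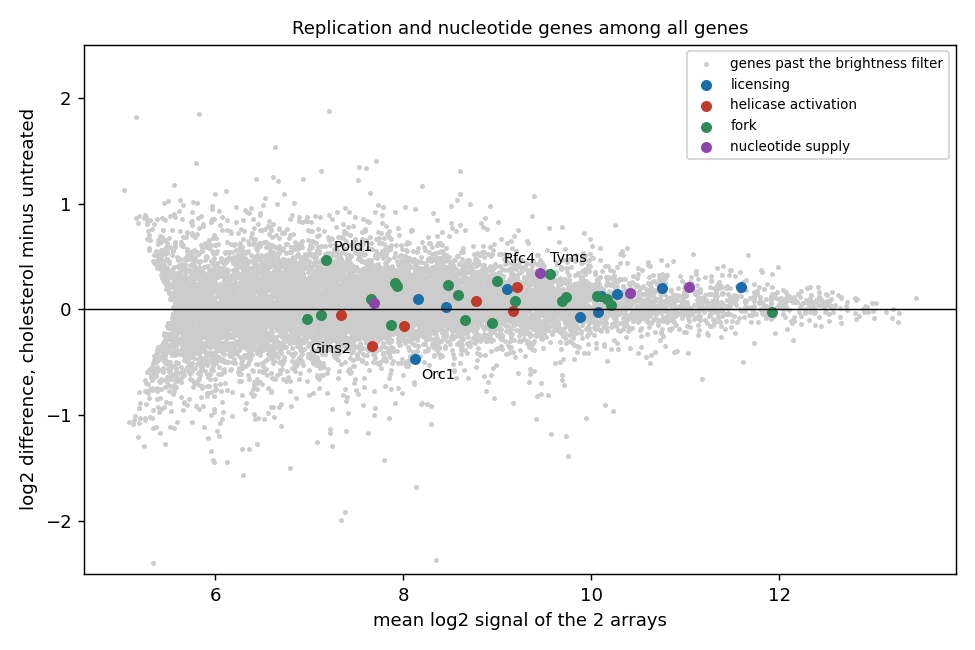
Log2 difference (cholesterol minus untreated, vertical axis) against mean log2 signal (horizontal axis) for 11327 genes past the brightness filter in grey and the 40 members coloured by role. The members lie between -0.47 and 0.47 by their measured signals, and the 5 members at least 25% higher or 20% lower are named.

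Of the 10 licensing genes, 7 were slightly higher with cholesterol, and Orc1, Mcm2 and Mcm4 were lower. The share higher, 70.0%, was near the 62.4% of genes in the members' signal range. Orc1, the largest subunit of the origin recognition complex, had a signal of 236 with cholesterol and 327 untreated. This was 1.38-fold lower (log2 difference -0.47), and it was lower under all 7 scalings of the arrays, from -0.58 to -0.43. Of the 40 members, only Orc1 lay outside the central 95% of genes in the same band of mean signal (1 of 5 bands of equal size), which ran from -0.38 to 0.53. Orc6, another subunit of that complex, was at 296 with cholesterol and 277 untreated (0.095). Cdc6, the ATPase that helps load the helicase, was at 353 and 349 (0.020), and Orc6 turned lower after centring on ribosomal protein genes and Cdc6 under 5 of the 7 scalings. Cdt1, the partner of CDC6 in loading, was at 586 with cholesterol and 513 untreated (0.19), higher under all 7 scalings. The 4 loading factors thus ran from -0.47 to 0.19 with a median of 0.058.

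The 6 subunits of the MCM2-7 helicase lay close together, with a median log2 difference of 0.14 and a range from -0.072 to 0.21. Mcm7 had a signal of 3310.3 with cholesterol and 2857 untreated (0.21), and Mcm6 had 1845 with cholesterol and 1605 untreated (0.20). Mcm5 was at 1304 with cholesterol and 1177 untreated (0.15), and Mcm3 at 1149 with cholesterol and 1049 untreated (0.13). These 4 subunits were higher under all 7 scalings. Mcm2 was at 1067 with cholesterol and 1087 untreated (-0.028), which became 0.016 when arrays were centred on the median of all gene-level probe sets. Mcm4 was at 920.0 with cholesterol and 967 untreated (-0.072), lower under all 7 scalings. All 6 lay inside the central 95% of genes in the brightest band, -0.34 to 0.45. That range is a spread across different genes and not the measurement error of a gene, so it cannot rank the subunits. Without replicate arrays, the order of the subunits was not tested.

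Helicase activation genes had a median log2 difference of -0.032, the only negative median of the 4 role groups in the deposited signals, although it was 0.012 after centring on the median of all gene-level probe sets. The 4 GINS genes encode the tetramer that bridges CDC45 and the MCM ring. Gins2 had a signal of 180.5 with cholesterol and 229 untreated, 1.27-fold lower (-0.34), and Gins3 had 243 with cholesterol and 271 untreated (-0.16). Gins1 was at 159.5 with cholesterol and 165 untreated (-0.049), and these 3 GINS genes were lower under all 7 scalings. Gins4 was at 451 with cholesterol and 427 untreated (0.078), or -0.032 after centring on ribosomal protein genes. Gins4 was also no longer higher after quantile normalization or after centring on positive controls. Cdc45, the helicase cofactor, was at 636 with cholesterol and 548 untreated (0.22), and was higher under all 7 scalings. Mcm10, which promotes activation of the helicase, was at 572 with cholesterol and 578 untreated (-0.015), or 0.029 after centring on the median of all gene-level probe sets. The subunits of the GINS tetramer therefore differed by unequal amounts, but all 4 stayed inside the central 95% of genes of like signal, which ran from -0.49 to 0.65 for Gins1, Gins2 and Gins3.

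**Figure D2:**
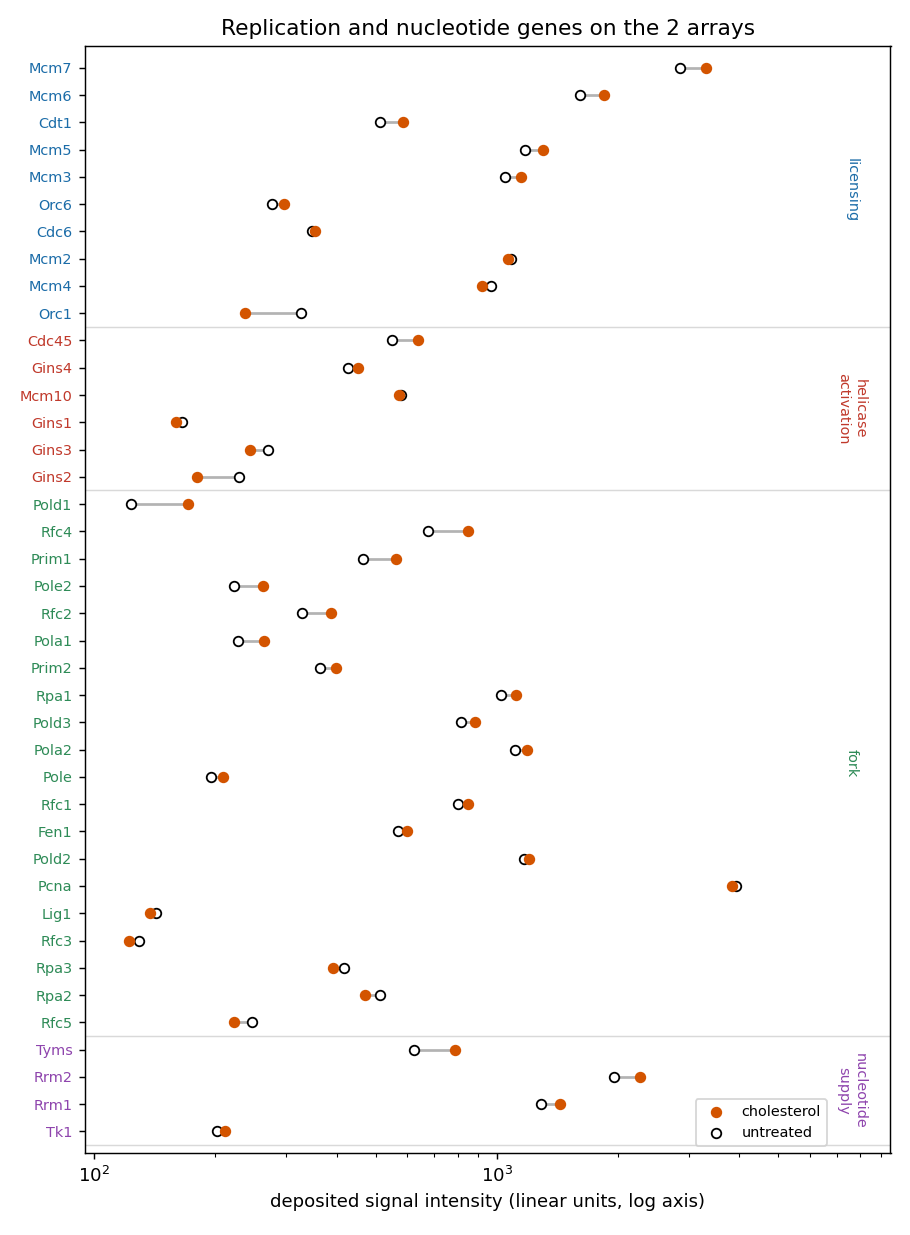
Deposited signal (log axis) of each gene on the cholesterol array (filled) and the untreated array (open), grouped by role and sorted by difference within each role. The widest gaps are those of Orc1 (236 with cholesterol, 327 untreated) and Pold1 (171 with cholesterol, 123 untreated).

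Among the fork genes, all 9 polymerase and primase genes were higher with cholesterol in the deposited signals. The background was 62.4% higher among genes in the members' signal range. Pola2 and Pole turned lower after centring on ribosomal protein genes, and Pold2 under 5 of the 7 scalings. DNA polymerase alpha and primase start each new strand. Prim1, the catalytic primase subunit, had a signal of 561 with cholesterol and 465 untreated (log2 difference 0.27), and Prim2, its partner, 399.9 with cholesterol and 365 untreated (0.13). Pola1, the catalytic subunit, was at 264 with cholesterol and 227 untreated (0.22), and Pola2, the accessory subunit, at 1189.9 with cholesterol and 1109 untreated (0.10). The 4 genes of this complex had a median of 0.18.

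Polymerase delta copies the lagging strand and polymerase epsilon the leading strand. Pold1, the catalytic subunit of polymerase delta, had a signal of 171 with cholesterol and 123 untreated (log2 difference 0.47). Its untreated signal lay within the negative control range. In the deposited signals, its cholesterol signal was 1.31 times the 95th percentile of the controls on the untreated array. The measured difference of Pold1 was positive under all 7 scalings, from 0.36 to 0.51. It lay inside the central 95% of genes of like signal, -0.60 to 0.70. The accessory subunits were closer to no difference, with Pold3 at 883 with cholesterol and 814 untreated (0.12) and Pold2 at 1204 with cholesterol and 1167 untreated (0.045). Pole2, a subunit of polymerase epsilon, was at 263 with cholesterol and 222 untreated (0.25). Pole, its catalytic subunit, was at 209 with cholesterol and 195 untreated (0.096).

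The sliding clamp and its loader did not share 1 direction. Pcna, the clamp that holds polymerases on DNA, had a signal of 3849 with cholesterol and 3922 untreated (log2 difference -0.027), or 0.016 after centring on the median of all gene-level probe sets. Of the 5 subunits of replication factor C, which opens the clamp, Rfc4 was at 851 with cholesterol and 673 untreated, 1.26-fold higher (0.34). Rfc2 was at 387 with cholesterol and 329 untreated (0.23), and Rfc1, the large subunit, at 849.7 with cholesterol and 802 untreated (0.083). Rfc1 turned to -0.027 after centring on ribosomal protein genes, whereas Rfc2 and Rfc4 stayed higher under all 7 scalings. Rfc5 was at 223 with cholesterol and 247 untreated (-0.15). Rfc3 was at 122 with cholesterol and 129.6 untreated (-0.087), both close to the 95th percentile of the negative controls. No direction is drawn for Rfc3, whose untreated signal lay within their range. Rfc5 was lower under all 7 scalings.

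The remaining fork genes act on single-stranded DNA and on Okazaki fragments, the short pieces of the lagging strand. Of the RPA complex, which coats single-stranded DNA, Rpa1 had a signal of 1118 with cholesterol and 1022 untreated (log2 difference 0.13), higher under all 7 scalings. Rpa2 was at 471 with cholesterol and 513 untreated (-0.12), and Rpa3 at 391.5 with cholesterol and 419 untreated (-0.097), both lower under all 7 scalings. Fen1, the flap nuclease, was at 599 with cholesterol and 568 untreated (0.076), and turned lower after centring on ribosomal protein genes or on positive controls. Lig1, the ligase that seals the fragments, was at 137 with cholesterol and 142 untreated (-0.051). The 20 fork genes together had a median of 0.099, with 14 higher and 6 lower, and -0.011 after centring on ribosomal protein genes. In the deposited signals the share higher, 70.0%, was near the 62.4% of genes in the members' signal range.

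Nucleotide supply genes had the highest median of the 4 role groups, 0.18. All 4 genes were higher in the deposited signals, beside 62.4% of genes in the members' signal range. Tk1 turned lower under 3 of the scalings. Tyms, thymidylate synthase, had a signal of 787 with cholesterol and 621 untreated, 1.27-fold higher (log2 difference 0.34). Rrm2, the regulated small subunit of ribonucleotide reductase, was at 2262 with cholesterol and 1957 untreated (0.21), and Rrm1, the large subunit, at 1436 with cholesterol and 1289.8 untreated (0.15). Tyms, Rrm2 and Rrm1 were higher under all 7 scalings. Tk1, thymidine kinase of the salvage route, was at 211 with cholesterol and 202 untreated (0.064). All 4 lay inside the central 95% of genes of like signal, which ran from -0.34 to 0.45 for Tyms, Rrm1 and Rrm2 and from -0.49 to 0.65 for Tk1.

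**Figure D3:**
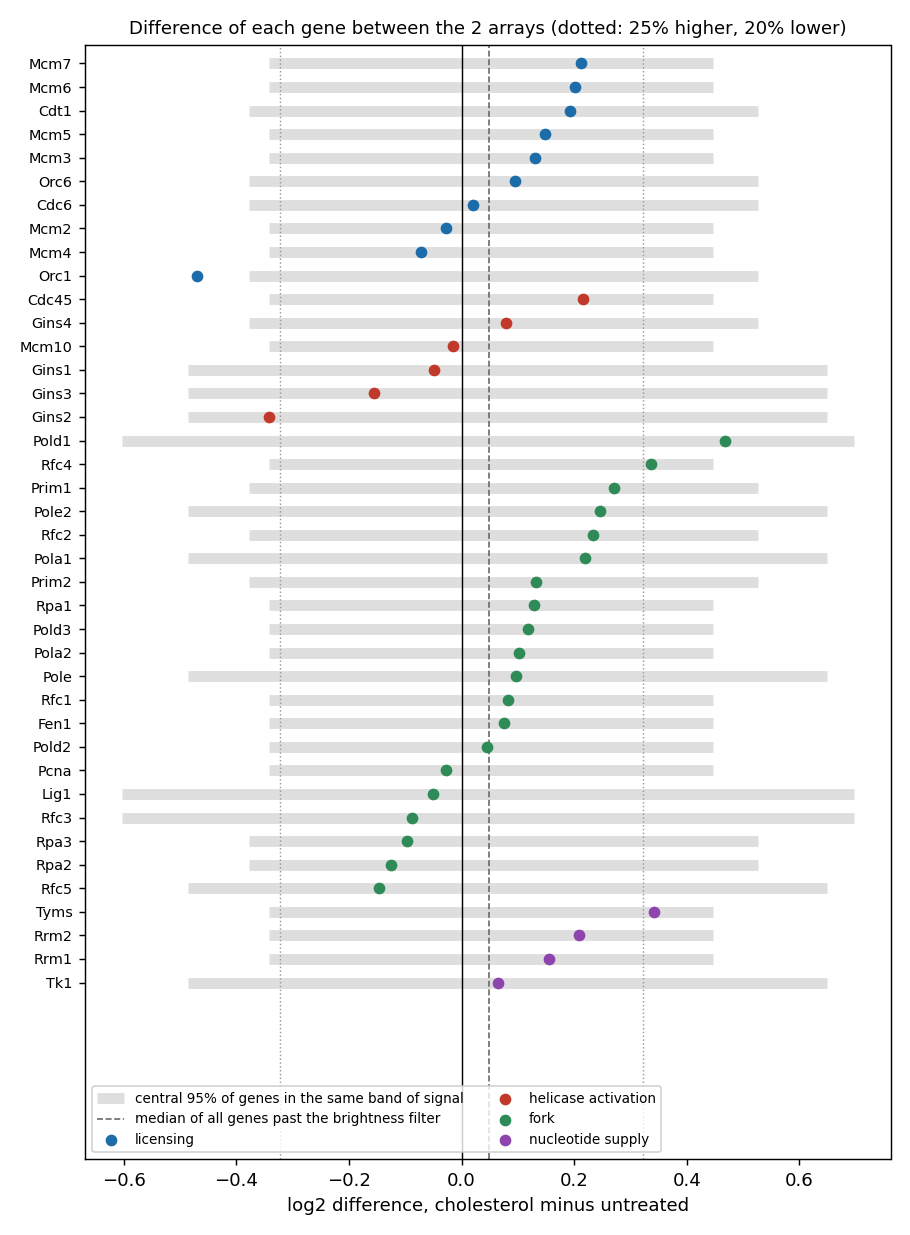
Log2 difference (cholesterol minus untreated) of each gene, coloured by role, on the central 95% of the genes in the same band of mean signal (grey bars), with the median of all genes past the filter (dashed) and the limits of 25% higher and 20% lower (dotted). Orc1 at -0.47 is the only point outside its grey bar.

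The differences between role groups were small beside the spread within each. The median of the licensing genes exceeded that of the fork genes by 0.014, while licensing genes ran from -0.47 to 0.21 and fork genes from -0.15 to 0.47. The nucleotide supply median exceeded the fork median by 0.083. Where a gene had 2 probe sets at or above the members' lowest mean signal, its brightest pair had log2 differences 0.067 apart at the median and 0.47 apart at the 95th percentile, over 32 genes. The gaps between role groups have no replicate check.

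The direction of 12 members changed with the scaling of the arrays. Of the 40 genes, 18 were higher and 10 lower under all 7 scalings, Rfc3 being counted among the lower by its measured signals. Members higher with cholesterol numbered 27 in the deposited signals, 30 after centring on the median of all gene-level probe sets, 24 after quantile normalization and 24 after loess. They numbered 25 after centring on genes past the filter, 22 after centring on positive controls and 18 after centring on ribosomal protein genes. Among all genes past the filter, the share that was higher moved likewise, with 67.0% after centring on the median of all gene-level probe sets, 50.1% after loess and 39.3% after centring on ribosomal protein genes. Ribosomal centring moved the median of all genes by -0.11, and the members' median was then -0.0145, against -0.061 over all genes. Relative to the median of all genes past the filter, the members' median was higher by 0.026 to 0.0465 under the 7 scalings. The order of the 4 role medians, nucleotide supply, licensing, fork and helicase activation from high to low, was the same under all 7. Centring shifts every gene equally, so only quantile normalization and loess could have altered that order.

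**Figure D4:**
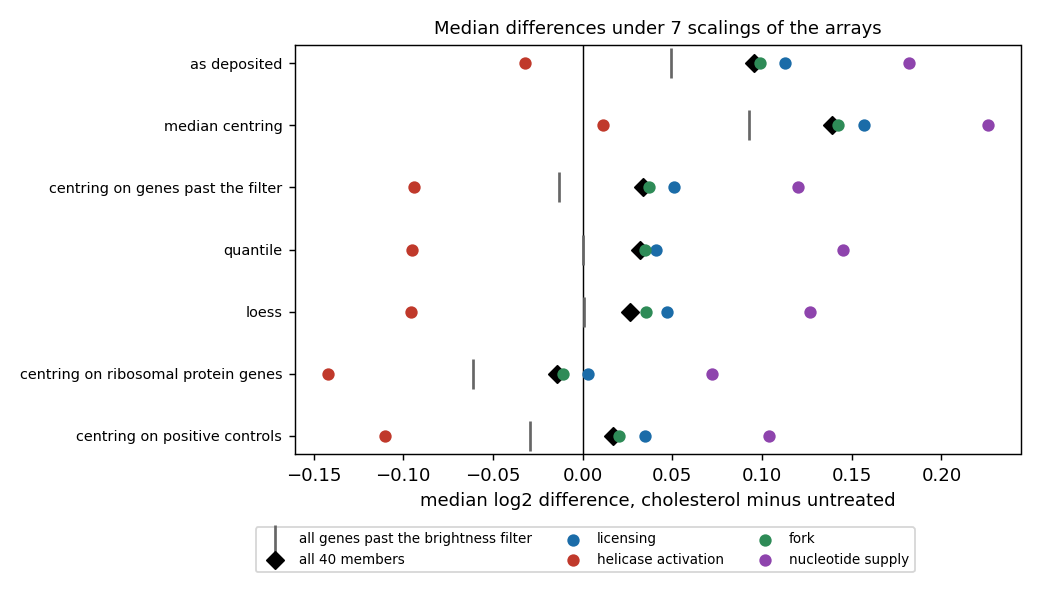
Median log2 difference (cholesterol minus untreated) of the 4 role groups, of all 40 members (diamonds) and of all genes past the brightness filter (vertical marks) under 7 scalings of the arrays. All medians shift together, from 0.14 for the members after centring on the median of all gene-level probe sets to -0.0145 after centring on ribosomal protein genes.

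Most other genes annotated to DNA replication were slightly higher too, as were most genes past the brightness filter. In the authors' annotated table, 122 genes carry the process term DNA replication, among them 38 of the members. Of the other 84, 75 passed the brightness filter, of which 51 were higher with cholesterol, with a median log2 difference of 0.11, beside 58.6% of all genes past the filter and a median of 0.049. At least 25% higher were 9 of the 75, and at least 20% lower were 2, near the 14.3% and below the 8.95% of all genes past the filter.

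In a list of 12 other origin and helicase factors, 10 were higher and 0 were at least 25% higher or 20% lower, with a median of 0.14. Its genes with the largest differences were Orc5, a subunit of the origin recognition complex (0.30), and Cdc7, the kinase that activates MCM2-7 (0.25). Of 18 other fork factors, 16 were higher, 4 by at least 25%, with a median of 0.18. Of the 16 past the brightness filter, 14 were higher and 2 by at least 25%, beside 58.6% and 14.3% of all genes past the filter. Dscc1 and Atad5 did not pass it. On both arrays, 4 of the 18 were within the negative control range. Rnaseh2a, a subunit of the nuclease that removes RNA from DNA, was at 398 with cholesterol and 283.5 untreated (0.49). Pold4, the small subunit of polymerase delta, was within the negative control range untreated and at least 1.23-fold higher.

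Other nucleotide synthesis genes, 21 in all, had a median of 0.064, with 13 higher, near the 58.6% of all genes past the filter. On both arrays, 2 of the 21 were within the negative control range. Samhd1, a hydrolase that degrades deoxynucleotides, was at 2588 with cholesterol and 1802 untreated, 1.44-fold higher (0.52). Rrm2b, the other small subunit of ribonucleotide reductase, was at 109.5 with cholesterol and 72.2 untreated, both within the range of the negative controls.

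Of 21 regulators of S phase entry, 12 were higher and 9 lower, with a median of 0.029. That share was near the 58.6% higher among all genes past the filter. E2f2, an E2F factor, was at 1272 with cholesterol and 804 untreated, 1.58-fold higher (0.66). Cdkn1b, the cyclin-dependent kinase inhibitor p27, was at 776 with cholesterol and 462 untreated, 1.68-fold higher (0.75). Both were higher under all 7 scalings. Of 13 mitosis genes, 13 were higher in the deposited signals, beside 58.6% of all genes past the filter, but Cdk1, Ccnb1 and Cdc20 turned lower under at least 1 of the scalings. The median of the mitosis genes was 0.19 and ranged from 0.078 to 0.23 over the 7 scalings. Bub1, a spindle checkpoint kinase, was 1.43-fold higher and Bub1b 1.37-fold.

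**Figure D5:**
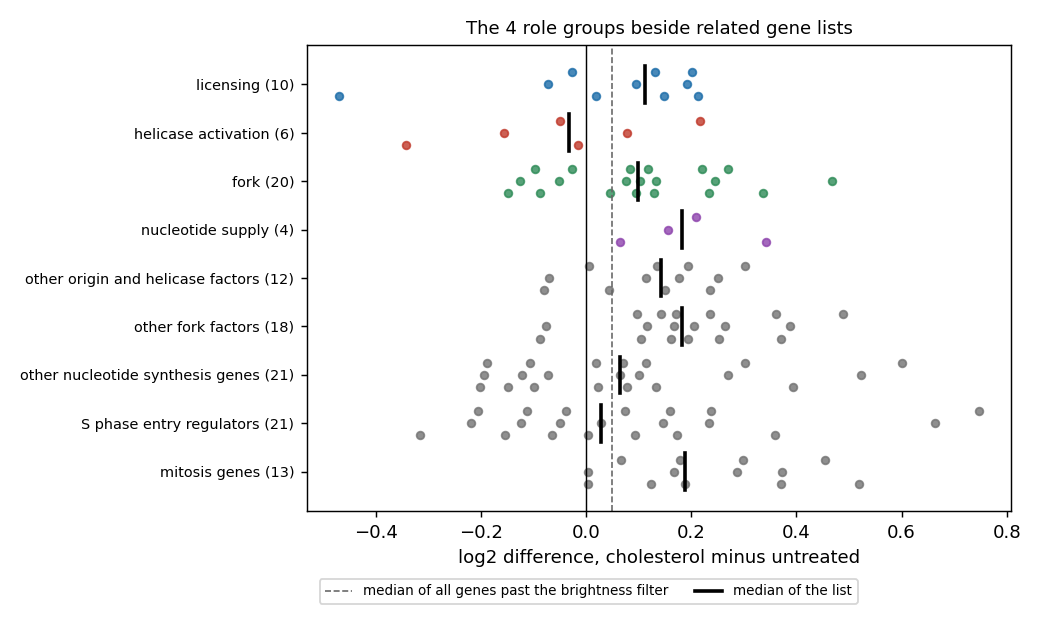
Log2 difference (cholesterol minus untreated) of each gene in the 4 role groups (coloured) and in 5 related lists (grey), with each list's median (black bar), the median of all genes past the filter (dashed) and the number of genes in brackets. The medians run from -0.032 for helicase activation to 0.19 for mitosis genes.

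Several markers of other cells differed more than the replication genes on the same arrays. All 8 markers listed for CD8 T cells were higher with cholesterol, beside 58.6% of all genes past the filter. Their median was 0.23, and their summed signal was 19786 against 16951 untreated. Cd3e and Cd2 turned lower after centring on ribosomal protein genes. Only Cd8a (0.21) and Cd8b1 (0.31) in that list are particular to CD8 T cells, and the others are shared with CD4 T cells. All 3 CD4 T cell markers were lower (summed signal 445 with cholesterol and 685 untreated), with Foxp3 and Cd40lg as dim as the negative controls on both arrays (at or below their 95th percentile). Of 8 macrophage and dendritic cell markers, 6 were lower (summed signal 1080.0 with cholesterol and 2016 untreated), and 5 were as dim as those controls on both arrays. The sum rests mainly on Cd74, at 562 with cholesterol and 1288 untreated, and H2-Aa, at 215 with cholesterol and 398 untreated, both genes of antigen presentation. Cd68, a lysosomal protein of macrophages and the third marker above the controls, was higher, at 181 with cholesterol and 145 untreated. All 3 NK cell markers were within the range of the negative controls in each culture, and 3 of 4 erythroid and mast cell markers were lower (371 with cholesterol and 384 untreated, summed). The part of these other cells in the differences of the replication genes was not tested.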

How the data were processed

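For each of 28846 probe sets the authors deposited a linear signal intensity on either array and a ratio of the cholesterol to the untreated signal. How the scans were corrected and normalized is not given in the sources used here. RNA was extracted with Trizol and labelled with biotin by a sense-target method, per the labels' protocols. The series value table held identical intensities.

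Of 22206 annotated probe sets, 31 with no usable symbol were left out, and the brightest probe set by mean log2 signal stood for each of 21877 genes. Differences are log2 cholesterol minus log2 untreated. The genes past the filter were cut into 5 bands of mean signal. The 7 scalings are the deposited signals, centring on 4 references (all gene-level probe sets, genes past the filter, 81 ribosomal protein genes, 1324 positive control probe sets), quantile normalization, and loess with a span of 0.4 (statsmodels 0.14.6). Procedures were checked on signals with known changes. All 40 members were named, as were, in each other list, the 2 genes past the filter that differed most and cell type markers, of which 1 list is not reported here. Members and lists were chosen with earlier results of these data known. The promoter search was added after seeing the data.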

Additional observations from a re-analysis of the deposited data

How the results depend on the processing

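Array scaling moved small differences across 0. Shifts of over 0.1 on the log2 scale, and counts that changed by over 1.5 times, are given here. After centring on ribosomal protein genes, the median log2 difference was -0.0145 over the 40 genes and -0.011 for fork genes, both turned in sign. It was 0.0030 for licensing, -0.14 for helicase activation and 0.072 for nucleotide supply genes under the same centring. Centring on the median of all gene-level probe sets turned the helicase activation median to 0.012 and left 1 member at least 20% lower. Members at least 25% higher numbered 1 after centring on genes past the filter, on ribosomal protein genes or on positive controls, and 1 after quantile normalization or loess. With log2(signal + 50), 1 member was at least 25% higher and another 1 at least 20% lower. The cause of these shifts was not tested beyond the construction of each scaling. Centring on positive controls was added after seeing the data, and the other alternatives were planned. The mean over probe sets and both filters on low signal gave the same values, since each member has 1 probe set and all 40 pass both filters. Of 672 values of single genes, 84 named genes under 8 alternatives, 101 moved by over 0.1. Centring on ribosomal protein genes moved every gene by -0.11, so most of the 101 follow from it. Of the genes at least 25% higher or 20% lower, 0 turned in sign. Centring shifts were too small to turn such a gene, and adding 50 keeps every sign. Only quantile normalization, loess and the mean over probe sets could have turned 1. No paired analysis was possible because each group has 1 array, and for the same reason no replicate could be left out. Signals near the negative controls limit Pold1, Rfc3 and Lig1.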
